A study of Solanum virginianum with 2 samples.

Results

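The miR160 family and the auxin response factor (ARF) transcripts it is predicted to cut were examined in pistils of 'B3-3', a long purple eggplant line that bears 2 flower types on the same plant. Small RNAs were taken as miR160 when their deposited name held miR160 or MIR160, and target transcripts were taken when such a name was listed against a transcript with the symbol ARF10, ARF16, ARF17 or ARF18. The rule found 7 of the 686 listed small RNA sequences and 20 of the 18764 pairs in which a small RNA was predicted to bind a transcript. Those 20 pairs lay on 4 of 12937 transcripts, and all 4 carried the symbol ARF18. The family as a whole had 56 pairs on 36 transcripts.

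The study made 1 small RNA library and 1 degradome library, which captures the 5′ ends of uncapped RNA such as cleavage products. Each was a pool of short-styled (S-morph) and long-styled (L-morph) pistils of field-grown plants. The sample labels give a budding age of 1 to 3 and of 3 to 6 days, while the extraction protocol adds pistils of days 13 to 15 to the degradome. The organism field reads Solanum virginianum and the series title Solanum melongena. Neither library had a replicate and the morphs were not kept apart, so the values describe these pools, and intervals are exact 95% intervals that cover counting error only. Both tables list targets or named sequences, not transcript levels, so the tissue could not be checked by expression. Of the markers looked for, 3 carpel transcripts (HEC3, YAB1, YAB2) were listed as predicted targets and 1 of them, YAB1, had degradome reads. The carpel markers AG, SHP, CRC, SPT, STK, NGA and INO were not listed. For the anther regulator GAM1, 4 transcripts were listed and 3 had reads, while AMS, TDF1 and DYT1 were not listed. Over all predicted transcripts, 5.15% had degradome reads. Petal, stamen and leaf photosynthesis markers listed were 0. A transcript is listed only when a small RNA is predicted to bind it, so these reads do not tell which tissues were present.

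ARF proteins bind auxin response elements in promoters. Those of the miR160 branch act mainly as repressors of auxin-responsive genes, and in Arabidopsis miR160 guides cleavage of ARF10, ARF16 and ARF17, which affects leaf shape, root cap, seed and flower development. In rice ARF18 is a known miR160 target, and which species gave the symbols in this table is not stated. Cleavage by a plant Argonaute falls opposite the middle of the small RNA, between its bases 10 and 11, so that the 3′ fragment begins with the transcript base that faces base 10.

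The 7 sequences are given because the 5 mature forms, listed first, differ from one another only at their ends, while the 2 p3 forms differ from them along their whole length. Bases 2 to 8, the seed, are in capitals.
sly-miR160a: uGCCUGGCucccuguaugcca
htu-miR160a_R+1: uGCCUGGCucccuguaugccu
nta-miR160a_1ss21AG: uGCCUGGCucccuguaugccg
tae-miR160_R+3: uGCCUGGCucccuguaugccacca
pab-miR160a_L+1: cUGCCUGGcucccuguaugcca
sly-MIR160a-p3: gCGUAUGAggagccaagcaua
tae-MIR160-p3_1ss5CG: gUCUGUCUcucucucucucucucu

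Nearly all miR160 reads came from 1 sequence. The family had 2024 of the 135737 listed reads, or 1.49% (1.43 to 1.56%). That placed it 11th of 77 named families by reads, just ahead of miR171 with 2021. The ranking leaves out unnamed sequences and keeps names known to match ribosomal or transfer RNA. The tomato-named sly-miR160a had 1886 reads and was the 15th most abundant of the 686 sequences. It made up 93.2% of the family reads (92.0 to 94.2%). The htu form had 18 reads and differed from it by A21U, and the nta form had 10 reads and differed by A21G, with positions counted from 1 at the 5′ end. The tae-miR160_R+3 form had 8 reads and carried 3 more bases, CCA, at its 3′ end. The pab form had 2 reads and carried 1 more base, C, at its 5′ end. The variation was therefore at the 3′ end in 3 of these 4 minor mature forms, and 1922 of 1924 mature reads shared the same first 8 bases (99.9%, 99.6 to 99.99%). The seed GCCUGGC was held by 4 of the 686 listed sequences, and all 4 were miR160 forms.

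**Figure D1:**
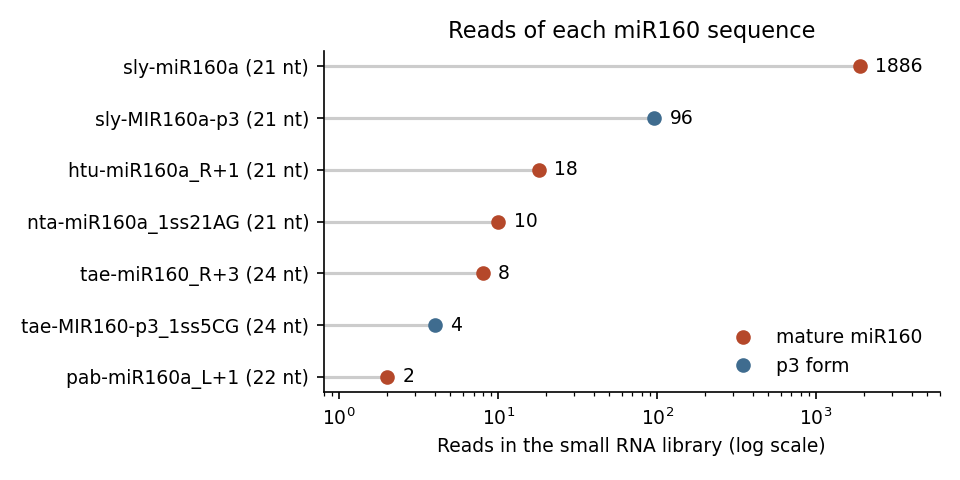
Reads of each of the 7 miR160 sequences in the small RNA library, on a log axis, with the length of each in nt. Orange points are mature forms and blue points are the p3 forms. The sly-miR160a form has 1886 reads and each of the other 6 has 96 or fewer.

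The sly-MIR160a-p3 sequence, second in the family with 96 reads, paired with sly-miR160a along most of its length. As background, a small RNA duplex leaves Dicer with short 3′ overhangs on both strands, and a scan of all ungapped registers placed sly-miR160a and sly-MIR160a-p3 with an overhang of 2 nt at each 3′ end. Over the 19 nt between the overhangs 17 bases paired, 14 as Watson-Crick pairs and 3 as G-U wobbles, and bases 4 and 12 of sly-miR160a were unpaired. Below, paired bases are in capitals.
sly-miR160a in the duplex: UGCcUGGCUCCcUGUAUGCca
sly-MIR160a-p3 in the duplex: GCGUAUGaGGAGCCAaGCAua
Of the 679 listed sequences outside the family 0 reached 17 pairs with sly-miR160a, and the most that any of them reached was 14. Close pairing of sly-MIR160a-p3 is already implied by the name it shares with sly-miR160a. The comparison with unrelated sequences is therefore no separate support for a duplex. The sly-miR160a strand had 19.6 times the reads of sly-MIR160a-p3. The other p3 form, tae-MIR160-p3_1ss5CG, is a CU repeat with 4 reads that formed at most 8 pairs over 19 nt, 5 of them wobbles.

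All 5 mature forms were predicted to pair with each of the 4 ARF18 transcripts, and the base at the 3′ end changed which transcript was matched best. The authors' alignment score is a mismatch score from 0 to 4, lower being closer. On Sme2.5_04025.1_g00003.1 and Sme2.5_04752.1_g00004.1 the htu form, ending in U, scored 0, while the sly and nta forms scored 1 on both. On Sme2.5_00209.1_g00014.1 the order was different, with 0.5 for the sly form, 1 for the nta form and 1.5 for the htu form. On Sme2.5_03336.1_g00003.1 the sly form again scored lowest with 1, followed by 1.5 for the nta form and 2 for the htu form. The abundant form was thus the closest match to 2 of the 4 transcripts, and a form with 18 reads was the closest to the other two. The pab and tae-miR160_R+3 forms, with added bases, scored 1 more than the sly form on all 4.

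Every ARF18 transcript had degradome reads at its miR160 position, and all 4 positions were in the authors' category 0, by convention the class in which the position holds the most reads of its transcript. Over all predicted transcripts, 5.15% had a degradome read at any predicted position and 0.309% had a category 0 position. At nucleotide 1379 of ARF18 Sme2.5_03336.1_g00003.1 the degradome held 72 raw reads (56.3 to 90.7, exact Poisson interval). ARF18 Sme2.5_00209.1_g00014.1 had 23 raw reads at nucleotide 1355 (14.6 to 34.5). ARF18 Sme2.5_04025.1_g00003.1 and Sme2.5_04752.1_g00004.1 had 26 raw reads each (17.0 to 38.1), at nucleotides 1298 and 1313. The interval of Sme2.5_03336.1_g00003.1 lay above those of the other three, which overlap one another. The 4 positions lay within 81 nt of each other when counted from the start of each transcript.

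Reads were unique to the site on 2 of the 4 transcripts. The deposited normalized reads, taken here to split each read among all its matching places, equalled the raw reads on Sme2.5_03336.1_g00003.1 (72) and Sme2.5_00209.1_g00014.1 (23). On Sme2.5_04025.1_g00003.1 and Sme2.5_04752.1_g00004.1 they were 13 each against 26 raw reads, which is 2 places per read, and these transcripts also had equal scores with all 5 mature forms. Their reads cannot be assigned to one or the other transcript. The ratio of 72 to 23 raw reads was 3.13 (1.93 to 5.25, exact conditional interval for counting error). Transcript levels were not measured, so the ratio does not separate more cleavage from more transcript, and in a pool of whole pistils fewer cells of a type and less RNA per cell cannot be told apart.

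**Figure D2:**
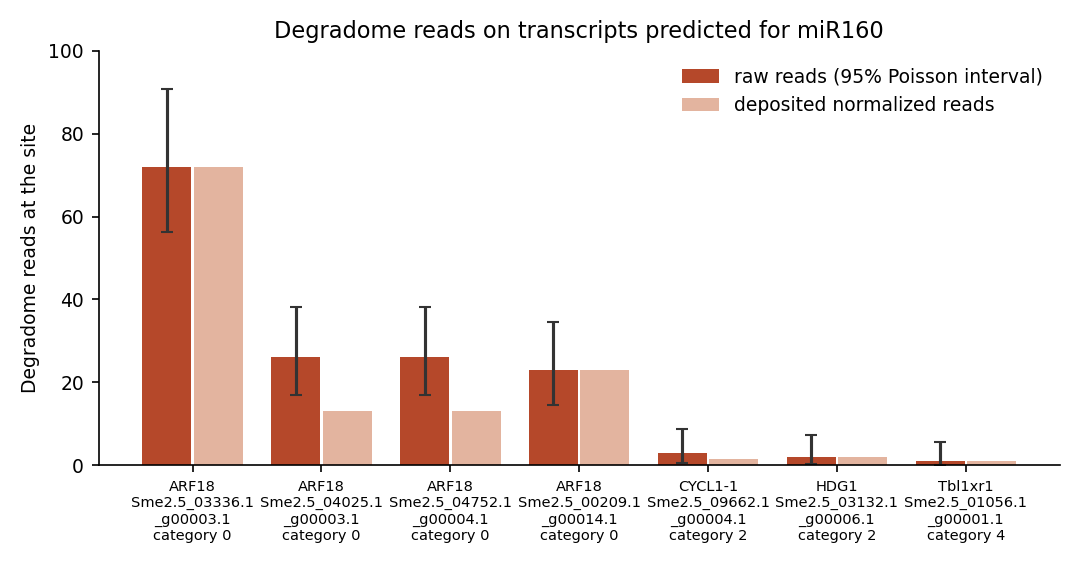
Degradome reads at the site on the 7 transcripts with reads among those predicted for miR160. Dark bars are raw reads with exact 95% Poisson intervals and light bars are the deposited normalized reads. The 4 ARF18 transcripts have 23 to 72 raw reads and the other 3 have 1 to 3.

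The table gives reads only at the position predicted for each pair, and the position listed was the one facing base 10 of the small RNA in 17 of 17 ARF18 pairs with reads, in 3 of 3 other miR160 pairs with reads and in 903 of 990 pairs of other small RNAs (91.2%). Facing base 10 is thus mostly set by the prediction and is no separate measurement. The sly, htu, nta and tae-miR160_R+3 forms begin at the same base and so share 1 expected position per transcript, which means that 16 of the 17 pairs repeat 4 positions and the degradome cannot tell these forms apart. The pab form begins 1 base earlier and its expected position is 1 nt further along. On Sme2.5_03336.1_g00003.1 that position, nucleotide 1380, had 1 read in category 4, against 72 reads at nucleotide 1379. Of the 73 reads at both, 98.6% (92.6 to 99.97%) were at the position of the forms with the common 5′ end. On the remaining 3 ARF18 transcripts the pab pair was listed without reads, so reads were nearly all at the position of the forms without the added 5′ base. In the authors' deposited table the p-values of the pairs at the 4 main positions were between 0.00204 and 0.00723, and that of the pab pair was 0.415.

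**Figure D3:**
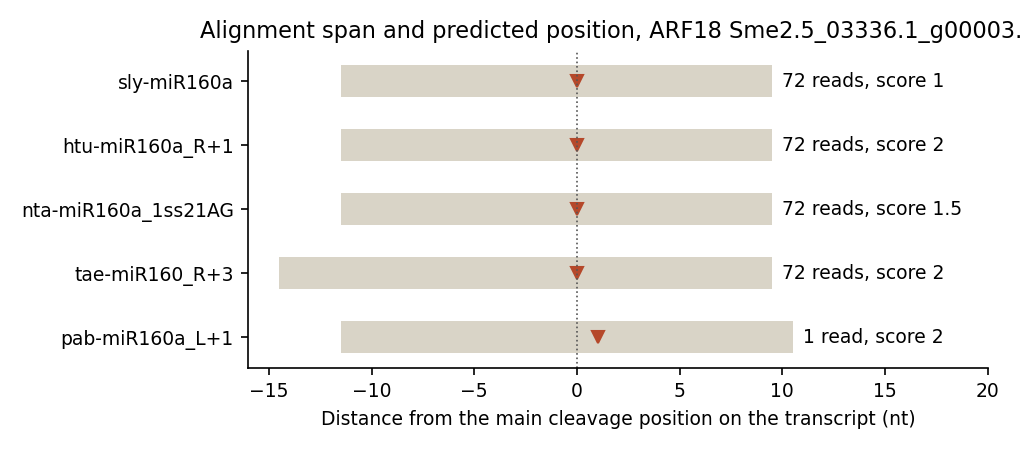
Alignment of the 5 mature forms to ARF18 Sme2.5_03336.1_g00003.1, as distance in nt from the main cleavage position, with the raw reads and the alignment score beside each bar. Bars are the aligned span and triangles mark the position predicted for each form. The 4 forms with a common 5′ end share the position at 0 and its 72 reads, and the position predicted for pab-miR160a_L+1, at 1, holds 1 read.

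The alignment scores of the family fell into separate groups. The 20 ARF18 pairs scored 0 to 2, and the 36 pairs on the other 32 transcripts scored 3 to 4, with 0 pairs between. Of the other 32 transcripts, 3 had degradome reads (9.38%, 1.98 to 25.0%) and 0 were in category 0. At scores of 2 or less, where 4 of 4 ARF18 transcripts had reads in category 0, other small RNAs had 1748 transcripts, of which 10.0% had reads and 0.686% had a category 0 position. Other small RNAs with a miR name had 1184 transcripts at such scores. Of these, 12.0% had reads and 11 transcripts were in category 0. On 2 of the 4 ARF18 transcripts the reads were shared and cannot be assigned, so their 2 calls are not separate. All 4 ARF18 transcripts had the same list of 6 gene ontology terms, among them auxin mediated signaling. That term was carried by 38 of all 12937 predicted transcripts and 0 of the other 32 miR160 transcripts. The 4 were chosen by their ARF symbol, so the term is no separate support. Only 10 of the other 32 had a symbol or annotation.

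**Figure D4:**
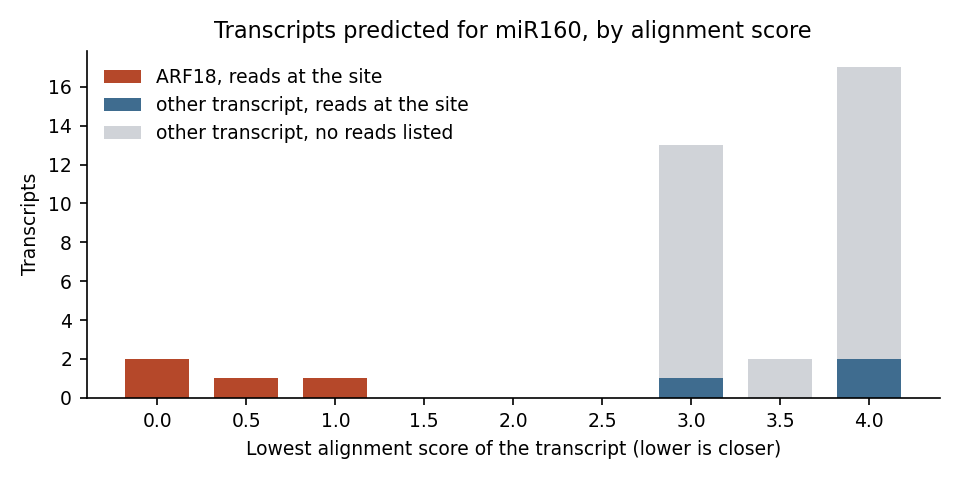
Transcripts predicted for miR160 by their lowest alignment score, where lower is closer. Orange bars are ARF18 transcripts, blue bars are other transcripts with reads and grey bars are other transcripts without listed reads. The 4 ARF18 transcripts lie at 0 to 1 and the other 32 at 3 to 4.

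The 3 other transcripts with reads had few of them. CYCL1-1 (Sme2.5_09662.1_g00004.1), a cyclin of the L type, had 3 raw and 1.5 normalized reads at nucleotide 1134 in category 2, for the CU repeat form. HDG1 (Sme2.5_03132.1_g00006.1), annotated as a homeobox-leucine zipper protein, had 2 raw reads at nucleotide 1186 in category 2, for the htu form at a score of 4. Tbl1xr1 (Sme2.5_01056.1_g00001.1), annotated as a transducin-like protein, had 1 raw read at nucleotide 445 in category 4, again for the CU repeat form. The authors' deposited table gave p-values of 0.641 for CYCL1-1, 0.581 for HDG1 and 0.434 for Tbl1xr1. The mature forms accounted for 16 of the other 32 transcripts and the CU repeat form for the remaining 16. All 16 of the mature forms were predicted for the htu form, and only 2 of them also for the sly form, both at a score of 4 and without reads. The sly-MIR160a-p3 strand had 0 predicted transcripts in the table.

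ARF18 was the only symbol of the miR160 branch with a miR160 pair in the rows analysed. ARF10 and ARF16 were not among the listed symbols. ARF17, a miR160 target in Arabidopsis, was listed for 1 transcript (Sme2.5_01901.1_g00007.1) with 19 pairs, 0 of them with a miR160 name and 0 with reads. Of those pairs 17 were with unnamed small RNAs and 2 with miR5303 names, at nucleotides 1062 to 1185 and scores of 1.5 to 4. The ARF18 transcripts had 4 further pairs with other small RNAs, at scores of 3 to 4 and upstream of the miR160 positions (nucleotides 165 to 1070), and 0 of these had reads. Among all predicted pairs 5.38% had reads, so 0 of 19 and 0 of 4 are near the background.

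Among all positions with degradome reads, those on ARF18 were near the top. Sme2.5_03336.1_g00003.1 ranked 8th of 825 positions by raw reads and 6th by normalized reads, and among the 40 category 0 positions it ranked 6th and 4th. Sme2.5_04025.1_g00003.1 and Sme2.5_04752.1_g00004.1 shared rank 19 by raw reads and rank 36 by normalized reads, so dividing the shared reads lowered them, while Sme2.5_00209.1_g00014.1 ranked 24th by raw and 14th by normalized reads. Among the 40 category 0 positions, Sme2.5_04025.1_g00003.1 and Sme2.5_04752.1_g00004.1 ranked 11th by raw and 17th by normalized reads. Sme2.5_00209.1_g00014.1 ranked 13th and 9th there. The median was 26 raw reads over the 4 ARF18 positions, 14 over all category 0 positions and 1 over all 825 positions. Summed over category 0 positions, miR160 had 121 normalized reads, rank 2 of 16 families with such a position, after miR396 with 247. By raw reads it had 147 and rank 3, after miR396 with 262 and miR167 with 157.

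**Figure D5:**
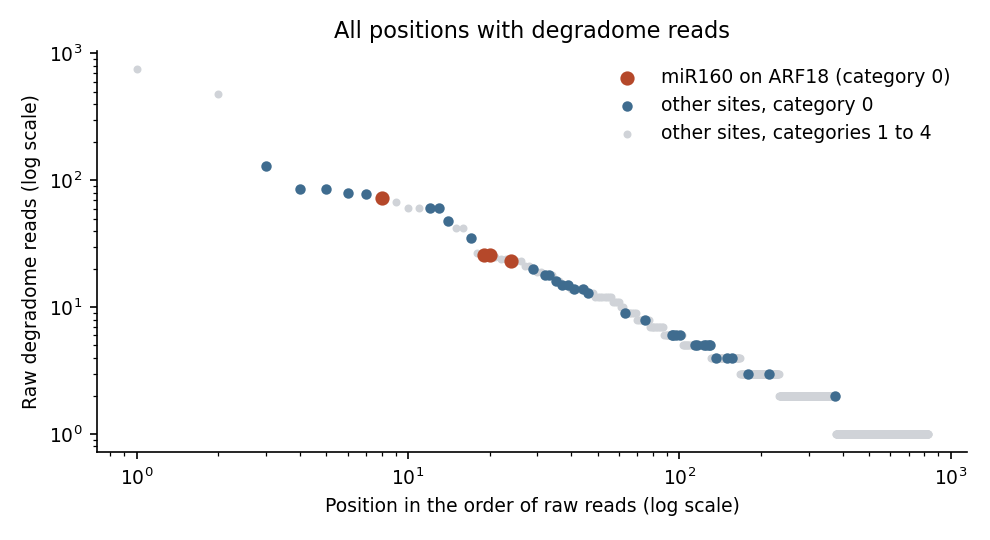
Raw degradome reads of the 825 positions with reads, in descending order, both axes logarithmic. Orange points are the 4 miR160 positions on ARF18, blue points are other category 0 positions and grey points are categories 1 to 4. The ARF18 positions, with 72, 26, 26 and 23 reads, lie among the highest 24 positions.

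Beside the miRNAs of other auxin genes, miR160 had the closer match to its transcripts. ARF18 had scores of 0 to 2 for miR160 (2024 listed reads). Reads were on 4 of 4 ARF18 transcripts, with 23 to 72 raw and 13 to 72 normalized reads per transcript. ARF8, an ARF of the activator branch, had scores of 4 for miR167 (1366 listed reads). Reads were on 2 of 2 ARF8 transcripts, with 78 to 79 raw and 39 to 40 normalized reads. The auxin receptor TIR1 had scores of 2 to 4 for miR393 (20 listed reads). Reads were on 4 of 5 TIR1 transcripts, with 9 to 61 raw and 1.80 to 19.1 normalized reads. By raw reads both ARF8 transcripts were thus above every ARF18 transcript. Category 0 positions were on 4 ARF18, 2 ARF8 and 2 TIR1 transcripts. Over all predicted transcripts, 5.15% had reads and 0.309% had a category 0 position. Reads were shared with other places on 2 of the 4 ARF18 transcripts, on both ARF8 transcripts and on all 4 TIR1 transcripts with reads. These are single values of 1 library, so the differences have no replicate check.

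In the wider auxin pathway most of the transcripts with reads were ARF and receptor transcripts. Of the 26 auxin transcripts listed as predicted targets of any small RNA, 12 had reads and 8 were in category 0, 4 of these being ARF18. The remaining ARF transcripts were 6, of which 3 had reads. ARF6, an activator ARF of flower maturation, had 2 raw reads in category 2 at a position predicted for a miR482 name. IAA27, an Aux/IAA repressor that holds ARF proteins inactive, had 1 raw read in category 4 for a miR6426 name, and the other 3 Aux/IAA transcripts had none. The 2 early response, 2 transport and 3 synthesis transcripts, among them GH3.5, PIN1C and YUC11, had 0 with reads. Over all predicted transcripts the shares were 5.15% with reads and 0.309% in category 0. The Aux/IAA group, with reads on 1 of 4, and the early response, transport and synthesis groups are small. Their counts cannot be told from that share.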

How the data were processed

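Small RNAs and degradome 5′ ends were sequenced from 1 pooled library each. RNA was extracted with a Norgen Biotek kit, small RNA libraries were made with an Illumina TruSeq kit and the degradome followed German and colleagues, per the labels' protocols. The aligner, target predictor and genome build are not given in the sources used here. The deposited small RNA table holds read counts per named sequence, 135737 in all, and the deposited degradome table holds raw read counts at each position. The authors' normalized reads are a signal value never above the raw reads, and the authors' TPB signal column was not used for any value. Alignment scores, category scores and p-values were taken from the authors' deposited table, the p-values as unadjusted. A position on a transcript named by several forms was counted 1 time, with the lowest category and then the lowest p. Shares carry Clopper-Pearson and read numbers exact Poisson intervals at 95%. The members and gene lists were chosen with earlier results of these data known, and no test across transcripts was made. Named transcripts were all ARF18 transcripts, every other miR160 transcript with reads, and auxin list transcripts with reads. Auxin list transcripts without reads are given by counts and examples. Alternatives covered the denominator, category, p, score, symbol and read definitions. The duplex scan and intervals were tested on simulated data. The software was SciPy 1.17.1, NumPy 2.4.6, pandas 2.3.3 and matplotlib 3.10.9 under Python 3.11.15.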

Additional observations from a re-analysis of the deposited data

How the results depend on the processing

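The 4 ARF18 transcripts with reads remained 4 in categories 0 to 2, at an authors' p of at most 0.05, at scores of at most 2.5, with members taken by symbol or annotation, and without small RNA names under 10 reads. The values reported above already met the category, p, score and read settings, so these could not have removed an ARF18 transcript. Of 12 alternatives 8, these among them, stayed near the reported value and 4 moved. The miR160 share of listed reads was 1.91% without names known to match ribosomal or transfer RNA and 1.83% among sequences of 20 to 22 nt, against 1.49% as reported, both being shares of fewer listed reads. The share of predicted miR160 transcripts with reads was 19.4% (8.19 to 36.0%) as reported and 100% (39.8 to 100%) at scores of at most 2.5, where only the 4 ARF18 transcripts are left. Reads at the ARF18 positions summed to 147 raw reads, in which the shared 26 count on both transcripts, and to 121 deposited normalized reads. No paired analysis was possible because each library is the only one of its kind. With 1 library per assay, no value has a replicate error, and a position without reads may belong to a transcript that is little expressed.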
